A study of Mus musculus with 29 samples.

Results

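miR-26a and miR-26b are close relatives: their guide strands, the arms loaded into Argonaute in most cells, carry the same seed, the short stretch near the 5′ end that finds target messenger RNAs. The miR-26 rows described here are mmu-miR-26a-5p and mmu-miR-26b-5p, which are the guides, and mmu-miR-26b-3p, the passenger strand of the miR-26b hairpin. They are 3 of the 1183 mature miRNAs in the deposited table, with the mmu- prefix of mouse left out below. They were taken by name, but the family was chosen by earlier results on these libraries, in which the counts of miR-26a-5p were low in the serum of old mice. The old against young serum contrast is therefore given as a description, with no test. In every other contrast that contains the old serum libraries the miR-26 rows are likewise described and not tested.

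The sequenced small RNA came from the tibialis anterior, a muscle of the lower leg, and from the serum of C57BL/6 mice to compare muscle wasting that comes with age with wasting that is induced. Old mice were 24 months old. Disuse mice were 6 months old and belonged to a disuse-induced model of atrophy, for which the sources used here give neither the method nor the duration. Young mice, the comparison for both, were also 6 months old. There were 5 libraries each of old, disuse and young muscle, 4 of old serum, and 5 each of disuse and young serum. The labels do not tie each library to an animal of its own. The p-values therefore speak only of the spread over these libraries, some of which may be technical.

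In mice the miR-26 hairpins sit inside genes of a family of small phosphatases that act on the tail of RNA polymerase II, and host gene and miRNA are often expressed together. miR-26a is known in mouse myoblasts for promoting differentiation: it represses Ezh2, a histone methyltransferase that keeps muscle genes silent, and in regenerating muscle it represses the signal transducers Smad1 and Smad4. It circulates in serum as well, where blood cells and many tissues release miRNAs.

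Because the guides differ so little, their sequences decide what the counts can separate, and they are shown here from RefSeq (GRCm38.p6), 5′ to 3′, with the seed (bases 2 to 8) in capitals.
miR-26a-5p: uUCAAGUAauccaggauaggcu
miR-26b-5p: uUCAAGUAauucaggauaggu
miR-26a-5p is encoded at chr9:119031811-119031832 and again at chr10:126995543-126995564, both on the plus strand, so its counts are the sum over both genes and cannot be split. miR-26b-5p lies at chr1:74394324-74394344 on the plus strand. Counted from the 5′ end, with the base of miR-26a-5p first, the guides differ by C11U and C21U, and miR-26b-5p is 21 bases long against 22. Neither difference is in the seed. Of the 1183 miRNAs in the table, 1008 had a RefSeq sequence, and among these UCAAGUA was the seed of miR-26a-5p and miR-26b-5p alone. The sources used here do not say how the authors assigned reads that match both guides.

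The passenger strands separate the hairpins better, and they are shown to tell which gene each comes from.
miR-26b-3p: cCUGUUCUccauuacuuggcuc
miR-26a-1-3p: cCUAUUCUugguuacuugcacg
miR-26a-2-3p: cCUGUUCUugauuacuuguuuc
miR-26b-3p (chr1:74394360-74394381) differs from miR-26a-2-3p at 4 bases, none of them in the seed, and from miR-26a-1-3p at 8, of which G4A is in the seed. The seed CUGUUCU was shared in the table by miR-26b-3p, miR-26a-2-3p and miR-6932-3p.

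The hairpins, with both mature arms in capitals, place each guide before its passenger.
Mir26a-1: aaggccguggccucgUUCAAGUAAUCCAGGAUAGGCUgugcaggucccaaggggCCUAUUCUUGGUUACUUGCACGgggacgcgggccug
Mir26a-2: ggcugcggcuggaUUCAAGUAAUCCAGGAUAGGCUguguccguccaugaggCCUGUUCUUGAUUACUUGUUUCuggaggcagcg
Mir26b: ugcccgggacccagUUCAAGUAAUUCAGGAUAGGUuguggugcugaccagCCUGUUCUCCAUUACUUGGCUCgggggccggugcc
In the GENCODE M21 annotation of GRCm38, Mir26a-1 (chr9:119031796-119031885) lies in an intron of Ctdspl and Mir26b (chr1:74394310-74394394) in an intron of Ctdsp1. Mir26a-2 (chr10:126995530-126995613) lies in Ctdsp2 and overlaps 2 of its annotated exons, in a protein-coding and a retained-intron transcript. All 3 hairpins are on the same strand as their host.

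Muscle libraries held 254624 to 5943445 counts and serum libraries 45176 to 309133. The young muscle libraries were the shallower ones, with a median of 535754 counts against 2825032 in old and 2298437 in disuse muscle. In CPM, counts scaled to a common library size with TMM factors, 6 skeletal muscle markers summed to 903.3 to 3619 in the 14 serum libraries and 334700 to 545426 in the 15 muscle libraries. The factors were computed separately for serum and muscle. Intervals on counts below cover counting error only.

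miR-26a-5p was among the most abundant miRNAs of muscle. It ranked between 5 and 8 in every muscle library and took 2.68% ± 0.361 of the counts in old, 2.53% ± 0.355 in disuse and 2.86% ± 0.432 in young muscle (SD, n = 5 each). miR-26b-5p ranked 53 to 66 and took 0.0859% ± 0.0138, 0.0658% ± 0.00797 and 0.0611% ± 0.00749 of the counts in old, disuse and young muscle. miR-26b-3p ranked 146 to 220. Over the 15 muscle libraries the sums were 880353 counts of miR-26a-5p, 25926 of miR-26b-5p and 1084 of miR-26b-3p, so the precision falls in that order.

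Old and young muscle were compared to ask what differs between 24 and 6 months of age. Of the 341 miRNAs tested, 20 (5.87%) passed an adjusted p of 0.05, 4 of them higher and 16 lower in old muscle, and none of the miR-26 rows was among them. Both arms of miR-26b stood higher in old muscle without passing, while miR-26a-5p did not.

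miR-26a-5p had 28232, 23542, 23717, 28920 and 26345 CPM in old muscle, against 23466, 29026, 32432, 23487 and 32282 CPM in young muscle. The young libraries enclosed all the old ones. Its log2 fold change was -0.11 ± 0.15 (SE; 95% interval -0.41 to 0.20; adjusted p = 0.716, edgeR's quasi-likelihood test).

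miR-26b-5p had 1086, 831.8, 728.1, 815.7 and 739 CPM in old muscle, against 513.8, 642.5, 614.6, 507.2 and 737.5 CPM in young muscle. In 4 of 5 old libraries it was above the highest young library, young muscle 5, and the remaining one, old muscle 3, lay just under it. Within each muscle group, however, the deepest library had the highest level. These were 1086 CPM in old muscle 1, 866.1 CPM in disuse muscle 2 and 737.5 CPM in young muscle 5. The young libraries were shallower, and the deepest of them, young muscle 2 and young muscle 5, had 642.5 and 737.5 CPM. The effect of depth on this level was not tested. Old muscle averaged 840.2 ± 145 CPM and young muscle 603.1 ± 96.1 CPM (SD, n = 5 each). The log2 fold change was 0.47 ± 0.17 (95% interval 0.12 to 0.83). The unadjusted p was 0.0107 and the adjusted p 0.108 in edgeR's quasi-likelihood test over all 341 miRNAs. Over the other scalings and filters the change stayed between 0.28 and 0.55, and its adjusted p lay between 0.0374 and 0.322, the lowest when the incomplete rows of the table were added. The change of 0.28 came with upper-quartile factors, where the median change of all tested miRNAs was -0.21. Relative to the median, miR-26b-5p differed by 0.49 with those factors and by 0.48 with TMM factors. Without old muscle 4 it was 0.56, with an adjusted p of 0.0484 in the same edgeR test. That library was the shallowest old muscle library, with 1349168 counts, and held 45763 CPM of 4 fibroblast and smooth muscle markers, against 11663 to 22712 CPM in the other old muscle libraries and 14268 to 18740 CPM in young muscle.

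miR-26b-3p, from the same hairpin, had 39.52, 37.05, 48.89, 29.15 and 31.1 CPM in old muscle, against 18.22, 22.04, 19.15, 26.23 and 27.72 CPM in young muscle. All 5 old libraries were above all 5 young ones, a separation that 3.52% of the tested miRNAs also showed in this comparison. Old muscle averaged 37.1 ± 7.81 CPM and young muscle 22.7 ± 4.21 CPM (SD, n = 5 each). The log2 fold change was 0.67 ± 0.23 (95% interval 0.19 to 1.15; adjusted p = 0.0987, edgeR's quasi-likelihood test). These values rest on 45 to 219 counts per old library and on 5 to 68 per young library. The adjusted p of the same edgeR test was 0.0403 without old muscle 4, with a change of 0.82, and 0.0497 without disuse muscle 3, with a change of 0.72. In bulk muscle, a higher level per cell and a larger share of cells that carry the miRNA cannot be told apart.

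**Figure D1:**
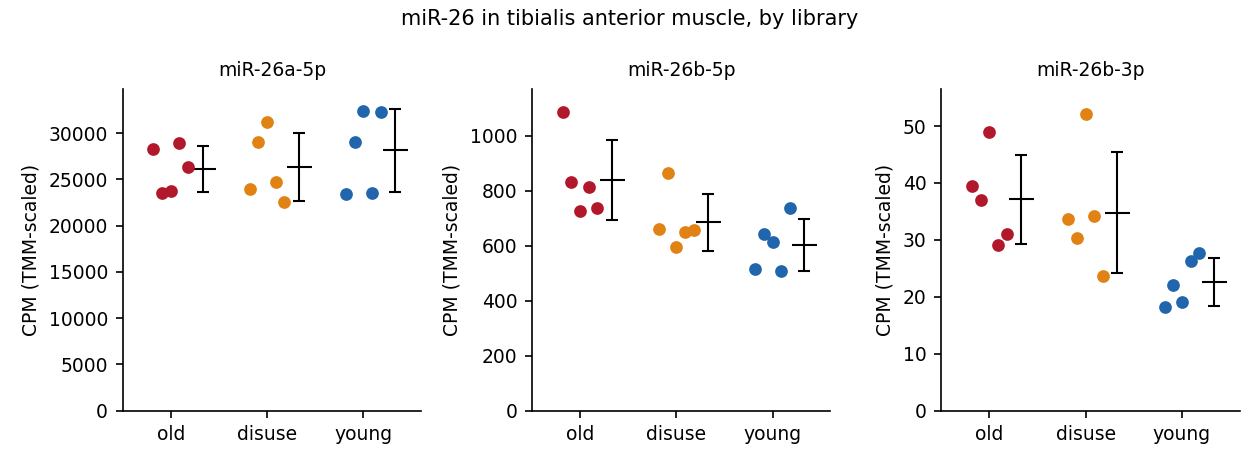
CPM scaled by TMM factors (linear axes from 0) of the 3 miR-26 rows in tibialis anterior muscle; each point is a library and the black bars are the mean and SD of 5 libraries in the old, disuse and young groups. The groups overlap for miR-26a-5p, 4 of 5 old libraries are above the highest young one for miR-26b-5p, and old and young libraries do not overlap for miR-26b-3p.

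A ratio of the guides within a library does not depend on the scaling between libraries. There were 25.98, 28.3, 32.57, 35.46 and 35.65 counts of miR-26a-5p per count of miR-26b-5p in the old muscle libraries 1 to 5, and 45.67, 45.17, 52.77, 46.31 and 43.78 in the young ones. The highest old value was below the lowest young value. How often other pairs of miRNAs separate old from young muscle in this way was not examined. The means were 31.6 ± 4.32 in old, 38.9 ± 7.66 in disuse and 46.7 ± 3.50 in young muscle (SD, n = 5 each), and the disuse libraries, with 36.28, 33.58, 52.23, 38.01 and 34.32, overlapped both. No test is given for a ratio formed from the chosen miRNAs. A read is a whole mature miRNA, so no scaling by length was applied, but different miRNAs also differ in how well they enter a library. For that reason the ratio says how libraries differ and not how many molecules of each guide a muscle held.

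Put as a share, miR-26b-5p made up 3.11% ± 0.431 of the guide counts in old, 2.57% ± 0.407 in disuse and 2.10% ± 0.143 in young muscle (SD, n = 5 each). In the lowest old library it was 2.73% (exact binomial 95% interval 2.62 to 2.84). In the highest young library it was 2.23% (2.13 to 2.34). These counting intervals do not meet, but they leave out the spread between libraries. The 2 deepest young libraries, with 2169800 and 2588831 counts, had ratios of 45.2 and 43.8. These were above the ratios of all the old libraries, which held 1349168 to 5943445 counts. Within each muscle group, however, the deepest library had the lowest ratio: 25.98 in old, 33.58 in disuse and 43.78 in young muscle. The shallowest library had the highest ratio in disuse muscle, at 52.23, but not in old or young muscle. Young libraries were also shallower, with a median of 535754 counts against 2825032 in old muscle. The effect of depth on the ratio was not tested. Disuse muscle 3, the shallowest library, had a share of 1.88% (1.59 to 2.20) from 149 of 7931 guide counts, which lay among the young values.

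**Figure D2:**
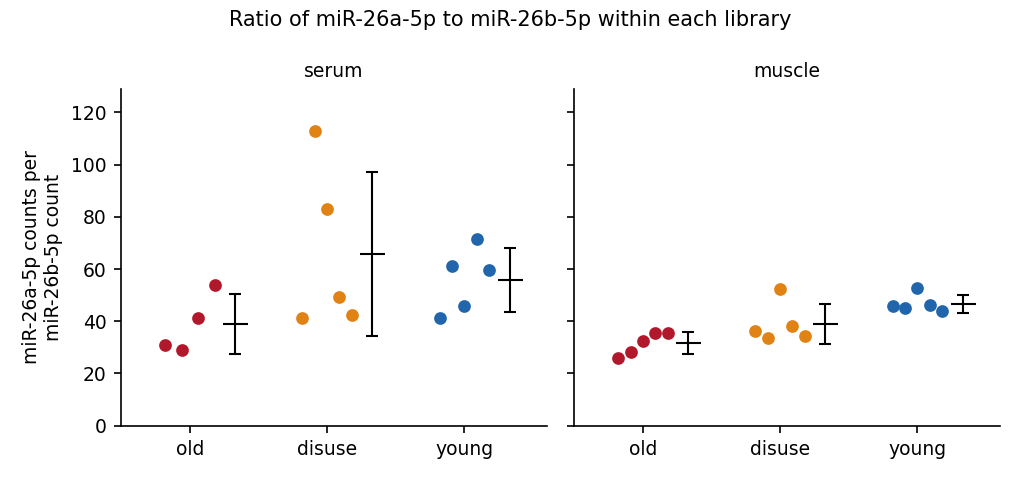
Counts of miR-26a-5p per count of miR-26b-5p in each library (linear axis from 0), serum on the left and muscle on the right; points are libraries and bars the mean and SD of each group. In muscle the old libraries lie between 25.98 and 35.65 and the young ones between 43.78 and 52.77, whereas the serum groups overlap.

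The arms of the miR-26b hairpin did not show such a separation between each other. The ratio of miR-26b-5p to miR-26b-3p was 23.3 ± 5.27 in old, 21.3 ± 7.06 in disuse and 27.1 ± 4.77 in young muscle (SD, n = 5 each), with overlapping ranges. Of the passenger strands of miR-26a, miR-26a-1-3p had 1 count over all muscle libraries and 3 over all serum libraries. miR-26a-2-3p stands in an incomplete row, which has a value too few for the 29 libraries. Read from the right end of the header it had 348 muscle counts, with a median of 10.8 CPM in old (6.48 to 16.1), 9.76 CPM in disuse (7.33 to 28.1) and 9.38 CPM in young muscle (0 to 13.99). These ranges overlapped. Of the miR-26 passenger strands in the table, miR-26b-3p thus had the most muscle counts, although its guide had fewer counts than miR-26a-5p.

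Disuse and young muscle were of the same age and differed by the induced atrophy. In this comparison 1 of 341 miRNAs (0.293%) passed, and it was none of the miR-26 rows. miR-26a-5p had 23977, 29084, 31197, 24706 and 22584 CPM in disuse muscle, which overlapped the young values above, with a log2 fold change of -0.10 ± 0.15 (95% interval -0.40 to 0.20; adjusted p = 0.871, edgeR's quasi-likelihood test). miR-26b-5p had 660.9, 866.1, 597.3, 650 and 658 CPM, and 1 of 5 disuse libraries was above the highest young library. Its log2 fold change was 0.19 ± 0.17 (95% interval -0.17 to 0.54; adjusted p = 0.812, edgeR's quasi-likelihood test).

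miR-26b-3p had 33.6, 30.4, 52.12, 34.26 and 23.62 CPM in disuse muscle, and 4 of 5 libraries were above the highest young library. The highest of these, disuse muscle 3, rests on 13 counts. Groups that did not overlap were seen for 2.35% of the tested miRNAs in this comparison, and for none of the miR-26 rows. The log2 fold change of miR-26b-3p was 0.47 ± 0.24 (95% interval -0.03 to 0.97; adjusted p = 0.590, edgeR's quasi-likelihood test). The old and the disuse comparisons share the young libraries, so the values of miR-26b-3p in them are not independent of each other.

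Old and disuse muscle were compared to set the wasting of age against the induced kind. Of 341 miRNAs 12 passed (3.52%), none of them a miR-26 row. The log2 fold changes of old over disuse muscle were -0.01 ± 0.15 for miR-26a-5p (95% interval -0.31 to 0.29), 0.29 ± 0.17 for miR-26b-5p (-0.06 to 0.64) and 0.20 ± 0.22 for miR-26b-3p (-0.25 to 0.64). The ranges of old and disuse muscle overlapped for all 3, while 6.45% of the tested miRNAs had ranges that did not. The adjusted p-values of the 3 were 0.987, 0.461 and 0.711 in edgeR's quasi-likelihood test. The interval of miR-26b-5p holds both 0 and the 0.47 seen against young muscle.

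Serum held less of both guides per count. miR-26a-5p ranked 9 to 26 in serum and miR-26b-5p ranked 84 to 124. Over the 14 serum libraries there were 30685 counts of miR-26a-5p, 616 of miR-26b-5p and 53 of miR-26b-3p. miR-26b-3p had 0 to 7 counts per serum library and did not pass the filter on low counts in serum. Its single 0 was in old serum 1, which allows up to 33.9 CPM there.

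miR-26a-5p had 10079, 5382, 9083 and 10689 CPM in old serum and 18146, 11770, 17673, 21996 and 15925 CPM in young serum. All 4 old libraries were below all 5 young ones, as for 10.3% of the 165 miRNAs measured in serum. This is the pattern that was known when the miR-26 rows were chosen, and nothing is read from it. Old serum averaged 8808 ± 2378 CPM (SD, n = 4) and young serum 17102 ± 3714 CPM (SD, n = 5), which corresponds to a fitted log2 difference of -0.96 ± 0.23 (SE).

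Disuse serum had 13766, 12412, 14320, 13496 and 13551 CPM of miR-26a-5p and averaged 13509 ± 694 CPM (SD, n = 5), between the old and young means. All 4 old serum libraries were also below all 5 disuse ones, as for 8.48% of miRNAs in that comparison, and the log2 fold change of old over disuse serum was -0.62 ± 0.23 (SE). The disuse and young values overlapped, and 2.42% of miRNAs had ranges that did not.

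miR-26b-5p, from far fewer counts, had 327.7, 184.7, 219.4 and 197.9 CPM in old serum, 332.3, 110.1, 172.6, 273.1 and 320.2 CPM in disuse serum, and 440.7, 192.5, 384.2, 307.6 and 267.7 CPM in young serum. All 3 groups overlapped. As a description, its log2 fold change was -0.47 ± 0.34 for old over young serum and -0.08 ± 0.34 for old over disuse serum (SE). There were 29.14 to 54 counts of miR-26a-5p per count of miR-26b-5p in old, 41.43 to 112.7 in disuse and 41.17 to 71.51 in young serum. The medians, 36.08, 49.42 and 59.5, ran in the order seen in muscle, but the means, 38.83, 65.76 and 55.87, did not. The ranges overlapped, and the old values come from the libraries used in the choice, so nothing is read from this ratio in serum. The number of miR-26b-5p counts limits this ratio: old serum 4 had 9 and disuse serum 2 had 13.

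**Figure D3:**
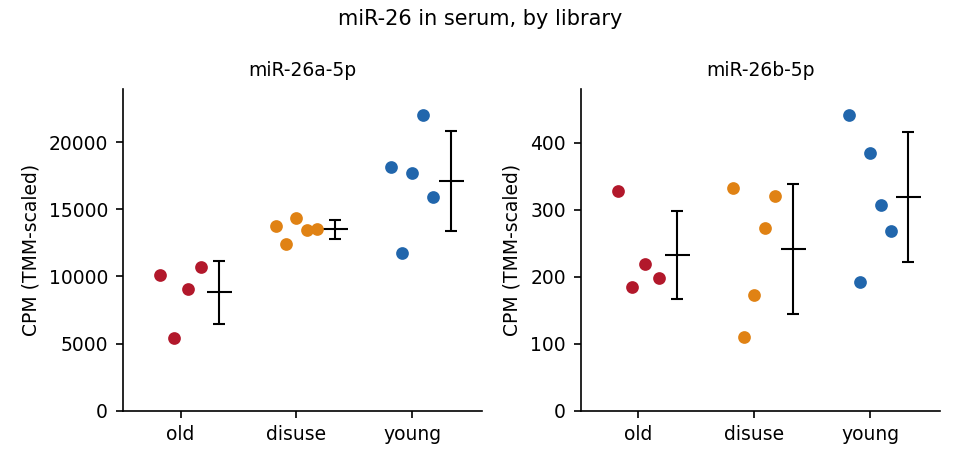
CPM scaled by TMM factors (linear axes from 0) of miR-26a-5p and miR-26b-5p in serum; each point is a library and the bars are the mean and SD of 4 old, 5 disuse and 5 young libraries. For miR-26a-5p the old libraries (5382 to 10689 CPM) lie below the disuse and young ones, and for miR-26b-5p the 3 groups overlap.

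Red cell miRNAs were low in the same serum libraries as miR-26a-5p. The sum of the 3 red cell markers, miR-451a and both arms of miR-144, was 5709 to 7742 CPM in old, 9320 to 12040 CPM in disuse and 8696 to 18636 CPM in young serum, and old serum was again below all the other libraries. Of single miRNAs, 10.3% separated old from young serum and 8.48% old from disuse serum. The log2 fold changes of old over young serum were -0.82 for miR-451a, -1.38 for miR-144-3p and -2.16 for miR-144-5p. All 3 had counts in every serum library, with as few as 1 count of either arm of miR-144 in an old library. Leukocyte markers, summed over 4 miRNAs, were 8401 to 18169 CPM in old, 12870 to 14974 CPM in disuse and 10840 to 19130 CPM in young serum, and overlapped. This sum came mostly from miR-142-5p, whose log2 fold change of old over young serum was -0.00. The other leukocyte markers went both ways, with -0.64 for miR-142-3p, -0.42 for miR-150-5p and 0.55 for miR-223-3p. Skeletal muscle markers, at 1593 to 2749, 923.5 to 3619 and 903.3 to 3426 CPM in old, disuse and young serum, overlapped too, and came mostly from miR-133a-3p. Endothelial markers overlapped as well, at 3739 to 7259, 6130 to 10681 and 5657 to 10160 CPM in old, disuse and young serum. So did fibroblast and smooth muscle markers, at 3039 to 7839, 3957 to 8094 and 3981 to 9084 CPM. The hepatocyte marker miR-122-5p, at 835.8 to 2438, 720.5 to 1640 and 148.7 to 2382 CPM, also overlapped. The part of red cell RNA, or of RNA from the other cell types, in the level of miR-26a-5p was not tested.

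Disuse against young serum was not used in the choice of the miR-26 rows, but it shares the young libraries with the contrast that was. Of 165 miRNAs 0 passed (0%) in edgeR's quasi-likelihood test and 20 had an unadjusted p under 0.05. DESeq2 also called 0. The log2 fold change was -0.34 ± 0.22 for miR-26a-5p (95% interval -0.79 to 0.11; adjusted p = 0.565, edgeR's quasi-likelihood test). For miR-26b-5p it was -0.38 ± 0.31 (95% interval -1.04 to 0.27; adjusted p = 0.705, edgeR's quasi-likelihood test). Both intervals are wide and include 0.

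Serum was set against muscle within each state to ask what part of the muscle profile appears in the circulation. Both guides were lower in serum than in muscle in disuse and young mice. In edgeR's quasi-likelihood test the log2 fold change of miR-26a-5p was -1.35 ± 0.13 in disuse (SE; adjusted p = 4.09e-08) and -1.28 ± 0.28 in young mice (3.33e-04). In the same edgeR test miR-26b-5p had -1.88 ± 0.24 in disuse (adjusted p = 1.75e-06) and -1.50 ± 0.32 in young mice (2.59e-04). In old mice, as a description with no test, the fitted differences of serum from muscle were -2.03 ± 0.24 for miR-26a-5p and -2.31 ± 0.28 for miR-26b-5p. Such differences were the rule: 69.3% of 316 miRNAs passed in old, 86.5% of 192 in disuse and 76.3% of 190 in young mice. The filter let through different sets in each state, and some of the old set passed it through muscle alone. miR-499-5p, for example, had 0 counts in all 4 old serum libraries and a log2 fold change of -9.03. These shares are therefore not compared between states. miR-26b-3p had too few serum counts for a comparison with muscle.

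As plain shares of the counts, miR-26a-5p was 0.910% ± 0.347 in old serum (SD, n = 4) and 2.68% ± 0.361 in old muscle. It was 1.38% ± 0.222 in disuse serum and 2.53% ± 0.355 in disuse muscle, and 1.73% ± 0.541 in young serum and 2.86% ± 0.432 in young muscle (SD, n = 5 each). The serum libraries lay below all muscle libraries of the same state in old and disuse mice, and 4 of 5 young serum libraries lay below all young muscle libraries. By CPM from the same fits, 63.6%, 77.6% and 63.2% of all miRNAs had serum and muscle ranges that did not overlap in old, disuse and young mice. The median change of all tested miRNAs was itself -0.87, -0.36 and -0.34 in old, disuse and young mice, and -0.48, 0.13 and 0.17 when libraries were scaled by their totals. Relative to that median, miR-26a-5p differed by -1.15, -0.99 and -0.94 on the log2 scale in old, disuse and young mice, and by -1.08, -1.01 and -0.89 with library totals. miR-26b-5p differed by -1.44, -1.52 and -1.16. Because the sets of tested miRNAs differed between the states, these shares, medians and differences from the median are not compared between states. RNA extraction and input differed between serum and muscle in every library, and their effect and that of the source cannot be told apart.

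**Figure D4:**
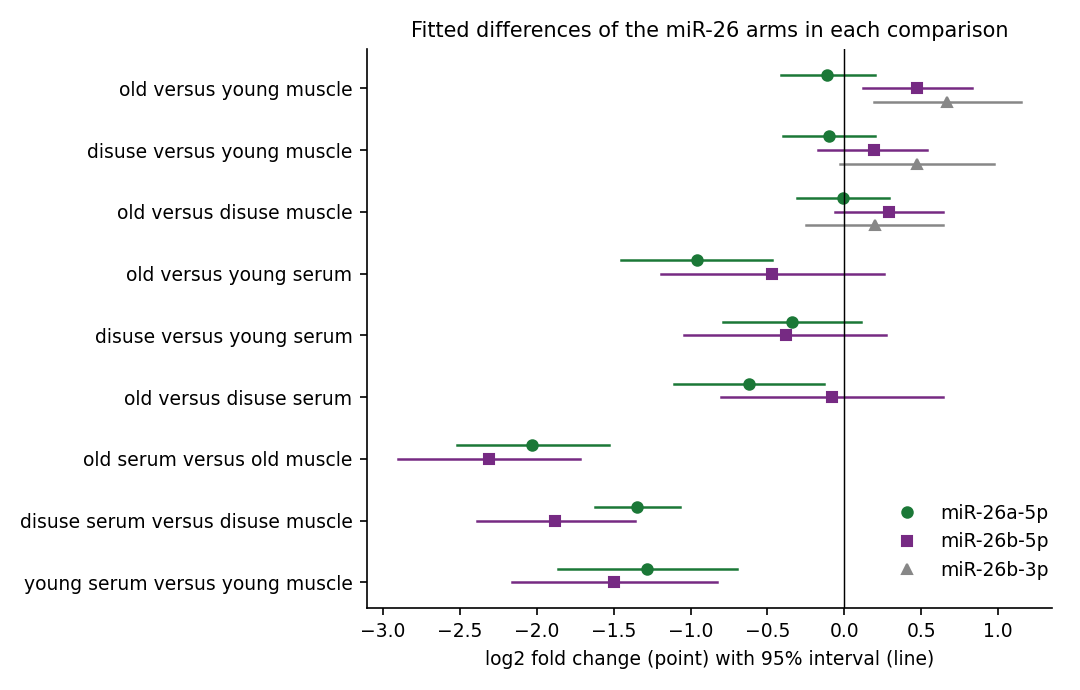
Fitted log2 fold change (point) with its 95% interval, not adjusted for the number of miRNAs (line), of miR-26a-5p, miR-26b-5p and, in muscle, miR-26b-3p, for each pair of groups named on the left, the first over the second. Intervals of both guides lie below 0 in the comparisons of serum with muscle, and among the muscle comparisons only those of both miR-26b arms between old and young muscle lie above 0; all values that rest on old serum are descriptions.

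An interaction over all 29 libraries asked whether disuse changed the miR-26 guides differently in serum than in muscle. Of 241 miRNAs 0 passed (0%) in edgeR's quasi-likelihood test, 24 had an unadjusted p under 0.05, and DESeq2 called 0. The difference, serum change minus muscle change, was -0.01 ± 0.28 for miR-26a-5p and -0.31 ± 0.36 for miR-26b-5p (log2 ± SE), with adjusted p-values of 1.00 and 0.938 in the same edgeR test. The same quantity for age contains the contrast used in the choice and is given without a test. It was -0.72 ± 0.29 for miR-26a-5p and -0.80 ± 0.38 for miR-26b-5p.

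Other miRNAs reported to repress Ezh2 or human EZH2, several of them in tumour cells, are miR-101a-3p, miR-101b-3p, miR-214-3p, miR-138-5p, miR-124-3p and miR-98-5p. Of these 6, 5 could be tested in muscle, and miR-124-3p, a miRNA of neurons, was too rare. Between old and young muscle 1 of the 5 rose and 0 fell: miR-138-5p changed by 0.79 ± 0.22 on the log2 scale (adjusted p = 0.0249, edgeR's quasi-likelihood test). The median of the 5 was -0.35 against -0.01 for all 341 miRNAs. miR-101a-3p was at -0.44, miR-101b-3p at -0.46, miR-98-5p at -0.35 and miR-214-3p at 0.15, and none of these passed. None of the 5 passed between disuse and young muscle or between old and disuse muscle, where their medians were -0.26 and -0.06, against -0.00 and -0.01 for all miRNAs. Between disuse and young muscle they went both ways, with 0.63 for miR-214-3p and 0.51 for miR-138-5p. There miR-101a-3p was at -0.38, miR-101b-3p at -0.48 and miR-98-5p at -0.26. In disuse against young serum 4 could be tested, 0 passed, and the median was -0.19 against -0.09 for all miRNAs. They again went both ways, with 0.92 for miR-214-3p, 0.04 for miR-101a-3p, -0.43 for miR-101b-3p and -0.89 for miR-98-5p. Of the 4, miR-214-3p was lower in serum than in muscle in old (-2.23), disuse (-2.25) and young mice (-2.69), and miR-98-5p in old (-1.06) and disuse mice (-0.63) but not past the threshold in young mice (-0.18). miR-101a-3p and miR-101b-3p did not pass in any state. miR-138-5p, with 0 to 11 counts per serum library, did not pass the filter on low counts in serum and is not set against muscle here. Of all tested miRNAs, 44.6%, 48.4% and 43.7% were lower in the serum of old, disuse and young mice and past the threshold. These shares are over different sets of miRNAs, some of the old set having passed the filter through muscle alone.

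The miRNAs whose levels ran most like the guides over libraries differed between the guides. Over the 15 muscle libraries and 338 other miRNAs, miR-26b-5p ran most like miR-99a-5p (Pearson r = 0.82, Spearman rho = 0.77), miR-152-3p (0.79, 0.62) and miR-361-5p (0.78, 0.81). miR-26a-5p ran most like miR-455-3p (0.69, 0.60), miR-134-5p (0.67, 0.59) and miR-331-5p (0.63, 0.74), which averaged 15.8, 6.44 and 5.25 CPM and so are poorly measured in the shallow libraries. The guides themselves had r = 0.23 in muscle, and the arms of miR-26b had r = 0.42. Over the 14 serum libraries and 163 other miRNAs, miR-26a-5p ran most like miR-15b-5p (0.94, 0.89), miR-148b-3p (0.86, 0.65) and let-7d-5p (0.86, 0.80). miR-26b-5p ran most like miR-199a-3p (0.69, 0.74), let-7c-5p (0.69, 0.61) and miR-15a-5p (0.67, 0.63), and the guides had r = 0.48. These correlations are descriptions: the points share library, depth and group, and each list holds the highest values out of many.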

How the data were processed

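The authors deposited 1 table of raw read counts, a row for each mature miRNA and a column for each library. Per the labels' protocols, Trizol was used for muscle RNA and a serum/plasma kit for RNA of 300 µl of serum, and TruSeq small RNA libraries were made from 2 µg or 10 ng of RNA with at most 15 PCR cycles and a gel cut at 145 to 160 bp. The submitters' processing notes name Bowtie and mm10. The sources used here do not give the Bowtie version, the annotation or the rule for reads matching several miRNAs. The table has 1183 rows, of which 695 are complete. The other 488 hold 28 values for 29 libraries, the leading 13 being 0. They hold 0.0518% of muscle counts, were left out, and were read from the right end as an alternative. Because they have no cell in the last column, its unit was recorded as other in the list of units, and the deposited values of its complete rows are counts. Each of the 29 columns carries a sample's title.

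Counts were tested with edgeR 4.0.16 in R 4.3.3 (glmQLFit and glmQLFTest, TMM factors, filterByExpr by group, Benjamini-Hochberg adjustment over all tested miRNAs, threshold 0.05). The 15 muscle libraries were fitted together, the 14 serum libraries together, serum against muscle within each state, and the interactions over all 29. The SE is the log2 fold change divided by the square root of F, and 95% intervals use the fit's degrees of freedom. Binomial intervals are Clopper-Pearson. A count of 0 allows up to 3 counts. Both cover counting error only, since PCR copies are counted as reads. The old against young fits of muscle and of serum were run on simulated counts, with changes larger than those of the miR-26 rows there. The simulation therefore does not speak for changes of that smaller size. The fits of serum against muscle and the interactions were not simulated. Alternatives were RLE, upper-quartile and total-count scaling, no filter, DESeq2 1.42.0, a replicate block, the incomplete rows, leaving out each library and leaving out the shallowest. No test is given for miR-26 rows in contrasts that contain old serum, which entered their choice, nor for miR-26b-3p against serum, where it passes the filter only through muscle. A test of old serum against old muscle had been planned and is not reported. The likeness of miRNAs used log2 CPM with a prior count of 2, naming the 3 with the highest r per guide and source.

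The named miRNAs are the 3 miR-26 rows, the other miR-26 arms, miRNAs with the same seed, those reported to repress Ezh2, and those nearest in pattern. The members and lists were chosen with earlier results of these data known. Sequences and coordinates are from RefSeq (GRCm38.p6) and hosts from GENCODE M21.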

Additional observations from a re-analysis of the deposited data

Results flagged for a closer look

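Among 24 groups of 4 or 5 libraries examined for a library that stands apart from the others, 4 had one, and chance flags about 1 in 20 such groups. miR-26b-5p was apart at 1086 CPM in old muscle 1, the deepest library, and at 866.1 CPM in disuse muscle 2, the deepest disuse library. The ratio of miR-26a-5p to miR-26b-5p was apart at 52.23 in disuse muscle 3 and at 52.77 in young muscle 3, libraries of 254624 and 488316 counts. miR-26a-2-3p, which stands in an incomplete row outside the tested table, had 348 counts over the muscle libraries when that row was read from the right end.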

How the results depend on the processing

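The number of miRNAs called between old and young muscle was 36 with upper-quartile factors against 20. Between disuse and young muscle it was 2 with upper-quartile factors, without a filter and with the incomplete rows, 0 with the replicate block, and 0 to 3 when libraries were left out one at a time, against 1. Without a filter 5 were called between disuse and young serum and 5 in the disuse interaction, 270 between young serum and muscle and 327 between disuse serum and muscle. The interaction count was 0 to 1 with single libraries left out, 1 being without disuse muscle 2. miR-26b-5p passed between old and young muscle with the incomplete rows (0.54, adjusted p = 0.0374 in edgeR), and gave 0.36 to 0.57 over the left-out libraries, the lowest without old muscle 1. miR-26b-3p gave 0.58 to 0.82 there. The untested difference between old serum and old muscle was -1.56 for miR-26a-5p and -1.88 for miR-26b-5p with library totals, and -2.63 for miR-26b-5p without a filter, and the cause was not tested. The near-zero change of miR-26a-5p between old and disuse muscle turned sign, at 0.04 with RLE factors and with DESeq2, 0.09 with library totals, 0.10 without a filter, 0.08 with the incomplete rows, 0.08 without the shallowest libraries and 0.00 with the block, and lay between -0.06 and 0.13 over the left-out libraries. Its disuse interaction was 0.00 with the block and -0.24 to 0.11 over them. Both guides stayed lower in serum than in muscle in disuse and young mice, and past the threshold, under every alternative run.

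Replicate numbers are shared between groups. The r of same-numbered libraries ran from -0.33 to 0.55, with no pair of groups above 0.1 in every pair. Between muscle groups 0 libraries correlated best with their own number. In serum some did: 3 of 4 between old and disuse serum (highest r 0.35), 2 of 4 between old and young serum (0.55) and 1 of 5 between disuse and young serum (0.24). Between old serum and old muscle it was 2 of 4 (0.10). In no pair of groups did every library do so. Under the replicate block the change between old and young muscle was 0.47 for miR-26b-5p (adjusted p = 0.159 in edgeR) and 0.61 for miR-26b-3p (0.175), and 18 miRNAs were called. Depth limits miR-26b in serum, where its guide had 616 counts over 14 libraries and an SE of 0.31 between disuse and young mice, against 0.17 in muscle. It limits miR-26b-3p in young muscle, with 5 to 68 counts per library.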
